A study of Mus musculus with 6 samples.

Results

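Ceramide is the central molecule of sphingolipid metabolism, and the genes described here encode 10 enzymes that make it, convert it or break it down: Cers2, Cers4, Cers5, Cers6, Sptlc1, Sptlc2, Ugcg, Sgms1, Asah1 and Smpd1. They are 10 of 18193 genes that had a probe set with a single gene symbol, and all 25 probe sets that the platform's gene table assigns to their symbols were read, each on its own. The set was selected on signals of these same arrays, with the difference of Cers6 between the groups already known, so the differences below are given as a description.

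The arrays hold regulatory T cells (Treg), CD4 T cells marked by the transcription factor Foxp3, sorted by a Foxp3-GFP reporter from mesenteric lymph nodes of BALB/c mice aged 4 to 6 weeks. On 3 arrays the cells were induced Treg (iTreg) of TBmc mice that had received ovalbumin orally at 1% for 1 week, labelled Nrp-. The T cells of TBmc mice share 1 receptor, which recognises ovalbumin, and their B cells share 1 receptor as well. On 3 further arrays the cells were total Treg of wild-type (WT) Foxp3 GFP mice, for which the labels name no feeding. The comparison sets Treg that arose outside the thymus against a mixed Treg pool. Genotype, receptor, feeding and the Nrp gate differ together between the groups and cannot be told apart.

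The labels of 2 arrays disagree with their group: WT replicate 1, titled total Treg, is labelled Nrp-, and iTreg replicate 1 has a strain label with neither TBmc nor the reporter. Over the tested probe sets, iTreg replicate 1 correlated most closely with WT replicate 1 (r = 0.943), above its correlation with iTreg replicate 2 (r = 0.925). iTreg replicate 2, whose labels do not disagree, also correlated best with WT replicate 1 (r = 0.938). Both replicate 3 arrays also stood apart. Median signals were 26.8, 27.5 and 24.3 in iTreg replicates 1, 2 and 3, against 32.3, 31.7 and 21.1 in WT replicates 1, 2 and 3, and the spiked cre controls averaged 18560, 20393 and 27135 in iTreg against 15052, 18023 and 28313 in WT Treg. A log2 ratio between the 3′ and 5′ probe sets of Gapdh, which rises when RNA is degraded, was 3.06, 2.48 and 3.38 in iTreg, against 2.28, 2.53 and 2.34 in WT Treg (exact permutation test, two-sided, p = 0.2, with 0.1 the smallest possible), and its part in the results below was not tested. The same ratio for Actb was 0.38, 0.25 and -0.00044 in iTreg, against 0.14, 0.27 and 0.32 in WT Treg (exact permutation test, two-sided, p = 0.8), and iTreg replicate 3, the highest array for Gapdh, was the lowest for Actb. Of 8 T cell and Treg markers, 7 lay above the range of unspiked controls on all 6 arrays; the eighth was Foxp3, at 31.7, 54.6 and 15.6 in iTreg, against 26.2, 45.7 and 9.16 in WT Treg, although the cells were sorted by its reporter. Plasma cell markers (3 of 3), NK cell markers (2 of 2 measured) and the erythroid marker lay within that range on every array. So did 2 of 5 measured B cell markers, while Cd79b lay above it on 4 arrays, Cd79a on 2 and Ebf1 on 1. Of 5 dendritic cell markers, 4 lay within it on every array and Zbtb46 lay above it on all 6. Of 5 stromal and endothelial markers, 3 lay within it on every array, while Col1a1 lay above it on 1 and Pecam1 on all 6. Pecam1 read 598, 345 and 735 in iTreg, against 371, 385 and 341 in WT Treg. Both CD8 T cell markers lay above the range of unspiked controls on all 6 arrays. Cd8b1 averaged 90.6 ± 36.0 in iTreg and 43.7 ± 17.0 in WT Treg (SD, n = 3 each), without overlap. Cd8a overlapped, at 30.9, 93.0 and 33.5 in iTreg, against 43.8, 39.8 and 39.2 in WT Treg.

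Sphingolipid synthesis starts in the endoplasmic reticulum, where serine palmitoyltransferase joins serine to palmitoyl-CoA; Sptlc1 and Sptlc2 encode subunits of that enzyme. Ceramide synthases then attach a fatty acid, and each member of the Cers family prefers certain chain lengths: Cers5 and Cers6 use palmitoyl-CoA, Cers4 uses longer chains and Cers2 very long chains. Sgms1 turns ceramide into sphingomyelin and Ugcg adds glucose to it, the step that opens the pathway to gangliosides, while the lysosomal enzymes Smpd1 and Asah1 release ceramide from sphingomyelin and split ceramide into sphingosine and a fatty acid. In T cells, sphingomyelin and glycosphingolipids are components of the ordered membrane regions around the T cell receptor, and sphingosine 1-phosphate guides exit from lymph nodes.

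Short stretches before a start site of Cers6, the member with the largest difference, and of Cers5 and Cers2, its relatives whose arrays overlapped, were read from RefSeq promoter windows (GRCm38.p6). The Cers6 and Cers2 stretches lie inside the annotated spans of these genes, which begin at 68861145 and 95314771. The Cers5 stretch lies outside the span of its gene. Each stretch was picked to show the motif named on its line, so the lines do not compare the genes. Capitals mark that motif only, and the Cers2 stretch also holds an unmarked GC box on the other strand.
Cers6 CCAAT, chr2:68861381-68861410, plus strand: cgggaacactagCCAATcagggcgtgcggc
Cers6 CACGTG, chr2:68861407-68861436, plus strand: cggccaggctgcCACGTGacaggcgaggcg
Cers2 CACGTG, chr3:95315049-95315078, plus strand: cgccctgcggggCACGTGccacccgccccg
Cers5 GGGCGG, chr15:99772553-99772582, minus strand: cgacggagaagtGGGCGGgaaggcgggatg
Motifs were searched on both strands of the 250 bases before each start: the CCAAT box, the E-box CACGTG, the GC box GGGCGG and the TATA box TATAAA. None of these motifs contains another, and the 2 Cers6 stretches overlap at their ends. Of 32851 mouse windows of that length, 33.8% held CCAAT, 6.02% CACGTG, 32.7% GGGCGG and 12.4% TATAAA. The Cers6 window held 1 CCAAT, starting 48 bases before the start, and 1 CACGTG, starting 22 bases before it, with 0 GGGCGG. One of the 2 Cers2 windows also held 1 CACGTG and 1 CCAAT, together with 2 GGGCGG, and the Cers5 window held 2 GGGCGG and neither of the others. None of the 13 windows of the members held TATAAA. A window was found for 9 of the 10 genes, and Asah1 was the gene without an entry. Binding was not measured.

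Across the 25 probe sets, 15 had a positive and 10 a negative difference (iTreg minus WT Treg, log2 of signal + 16, fitted with limma), and 16 lay between -0.5 and 0.5. The median was 0.25, against -0.022 over all 27022 probe sets tested; it was 0.085 without iTreg replicate 1, 0.074 without iTreg replicate 2 and 0.095 without WT replicate 3. Leaving out both arrays whose labels disagree gave a median of 0.14. A filter on low signals left 23 of the 25 for the test, and limma called 0 of them higher and 0 lower at a Benjamini-Hochberg adjusted p of 0.05, where it called 0.0259% of all probe sets tested, 0.0037% higher and 0.0222% lower. At an unadjusted p under 0.05, limma gave 2 members higher, where 2.44% of all tested were, and 1 lower, where 3.77% were. Groups of arrays without overlap were seen for 3 probe sets with higher and 2 with lower signals in iTreg, where 4.54% and 6.89% of all tested had them. These 5 were the probe sets of Cers6 and Asah1 and 1 of Ugcg, and 1 each of Cers4 and Smpd1. In bulk samples, fewer cells that express a gene and less RNA per cell cannot be told apart.

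**Figure D1:**
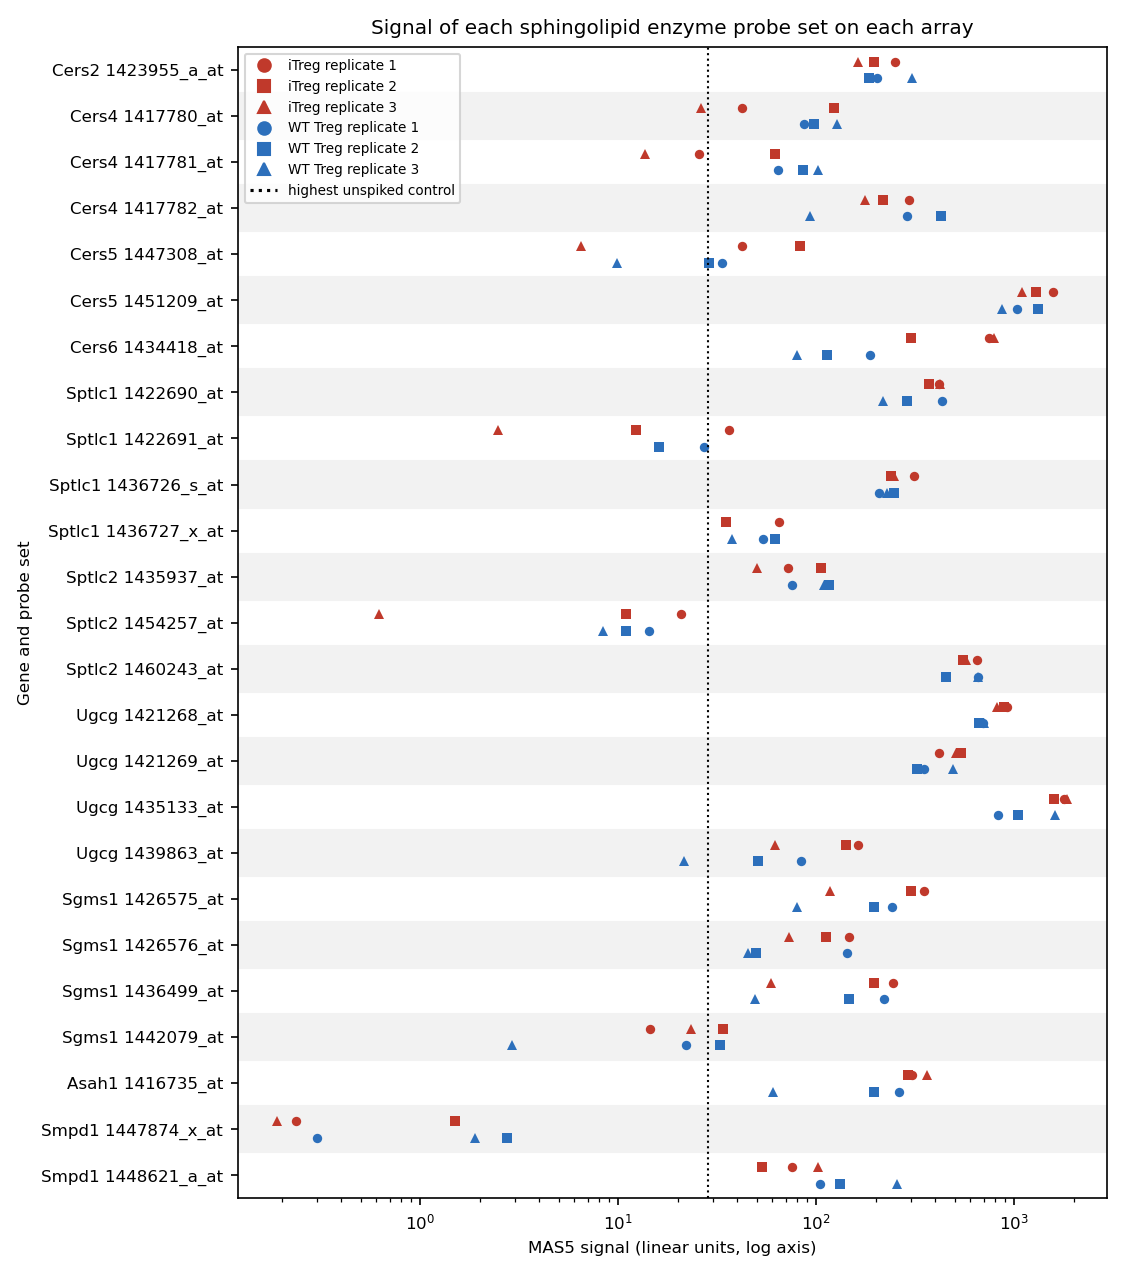
MAS5 signal (log axis) of each of the 25 probe sets on each array, iTreg above and WT Treg below within each row, with the highest unspiked control at 28.5 as a dotted line. The iTreg arrays of Cers6 sit between 301 and 788, all above the WT arrays at 79.5 to 187, while most other rows overlap.

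**Figure D2:**
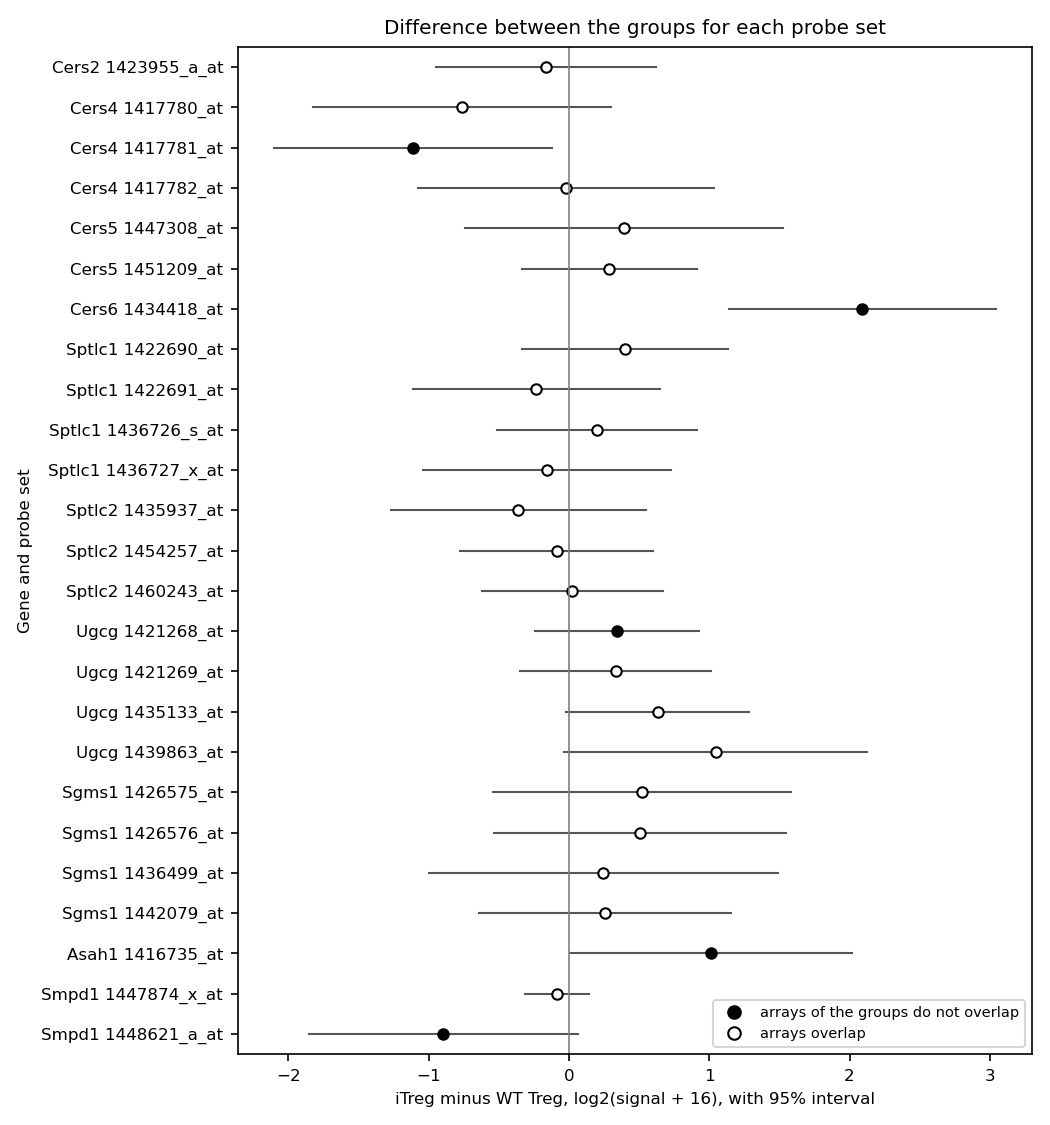
Difference between iTreg and WT Treg on the log2(signal + 16) scale for each probe set, with its 95% interval from limma; filled points mark groups of arrays that do not overlap. Cers6, at 2.09, stands furthest from 0, and most intervals include 0.

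On no probe set of the first enzyme of the pathway did the groups part. Sptlc2, which carries the catalytic site of serine palmitoyltransferase, had signals of 652, 548 and 571 in iTreg, against 655, 453 and 653 in WT Treg on its brightest probe set (1460243_at). The iTreg arrays all lay within the range of the WT arrays, and the difference was 0.024 with a 95% interval from -0.62 to 0.67. Its probe set 1435937_at differed by -0.36 with overlapping arrays, and 1454257_at stayed within the range of unspiked controls on all 6 arrays.

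Sptlc1 encodes the partner subunit that holds the enzyme together. Probe set 1422690_at read 417, 373 and 421 in iTreg, against 432, 288 and 218 in WT Treg, a difference of 0.40 (95% interval -0.33 to 1.14). WT replicate 1 was the highest of all 6 arrays, so the groups overlapped. The other 3 probe sets gave 0.20, -0.16 and -0.23, so that 2 of the 4 were positive and 2 negative, and the last of these, 1422691_at, rose above the unspiked controls on 1 array.

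Cers6 had the largest difference of the 25 probe sets. Its only probe set (1434418_at) had signals of 743, 301 and 788 in iTreg replicates 1, 2 and 3, and of 187, 113 and 79.5 in WT replicates 1, 2 and 3. Every iTreg array lay above every WT array, with iTreg replicate 2 the nearest to the WT range. The means were 611 ± 269 in iTreg and 126 ± 54.9 in WT Treg (SD, n = 3 each), a ratio of 4.83. On the log2 scale the difference was 2.09 (standard error 0.44, 95% interval 1.14 to 3.04, limma adjusted p = 0.252).

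Leaving out single arrays gave Cers6 differences from 1.84, without WT replicate 3, to 2.53, without iTreg replicate 2. Without both arrays whose labels disagree with their group it differed by 2.18, and without both replicate 3 arrays by 1.60. With a single probe set, no second reading of Cers6 was available on the array.

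Cers5, which shares the palmitoyl-CoA preference of Cers6, read 1561, 1282 and 1095 in iTreg, against 1035, 1325 and 869 in WT Treg (1451209_at). The arrays overlapped, with WT replicate 2 above iTreg replicates 2 and 3, and the difference was 0.29 (95% interval -0.34 to 0.91). The difference between Cers5 and Cers6 was not tested. The dimmer probe set 1447308_at differed by 0.39 (95% interval -0.74 to 1.53), and by -0.089 without iTreg replicate 2, with its replicate 3 arrays at 6.51 in iTreg and 9.87 in WT Treg, both within the range of unspiked controls.

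Cers2, the synthase of very long chain ceramides, read 249.6, 196 and 163 in iTreg, against 204, 185 and 304 in WT Treg. The arrays were intermixed, and the difference was -0.16 (95% interval -0.95 to 0.62). It was 0.039 without WT replicate 3 and 0.17 without both replicate 3 arrays.

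For Cers4 the probe sets disagreed, although the platform table gives all 3 the same source sequence. Probe set 1417781_at read 25.4, 61.6 and 13.6 in iTreg, against 64.2, 85.6 and 102 in WT Treg, a difference of -1.11 (standard error 0.46). Its arrays did not overlap, but iTreg replicate 2 and WT replicate 1 were close, and iTreg replicates 1 and 3 lay within the range of unspiked controls. Probe set 1417780_at had the same order of arrays within each group, at 42.2, 123 and 26.3 in iTreg, against 86.9, 97.4 and 127 in WT Treg, and differed by -0.76. Here the groups overlapped, with iTreg replicate 2 above WT replicates 1 and 2.

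The brightest Cers4 probe set, 1417782_at, read 292, 218 and 176 in iTreg, against 286, 426 and 92.6 in WT Treg. Here WT replicate 3 was the lowest array, whereas it was the highest on the other 2 probe sets. The difference of 1417782_at was -0.019 (95% interval -1.07 to 1.03), from -0.60 without WT replicate 3 to 0.41 without WT replicate 2.

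Ugcg, the glucosylceramide synthase, had a positive difference on all 4 of its probe sets. Probe set 1421268_at read 919, 887 and 818 in iTreg, against 695, 663 and 702 in WT Treg. The arrays did not overlap, and the replicates were close together, with means of 875 ± 51.3 in iTreg and 687 ± 20.7 in WT Treg (SD, n = 3 each). The difference was 0.34 on the log2 scale (standard error 0.27, 95% interval -0.24 to 0.93); limma draws the spread of each probe set towards that of others with like signal.

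Probe set 1435133_at of Ugcg read 1783, 1585 and 1857 in iTreg, against 832, 1044 and 1599 in WT Treg, with WT replicate 3 just above iTreg replicate 2. It differed by 0.63, by 0.89 without WT replicate 3, by 0.42 without WT replicate 1 and by 0.40 without both arrays with disagreeing labels. Probe set 1439863_at read 163, 142 and 61.7 in iTreg, against 84.1, 50.7 and 21.6 in WT Treg and differed by 1.04, with iTreg replicate 3 below WT replicate 1 and replicate 3 the lowest array of each group. The last one, 1421269_at, differed by 0.33. Over single arrays left out, the 4 probe sets stayed between 0.22 and 1.42.

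Sgms1, the sphingomyelin synthase of the Golgi, also had a positive difference on all 4 probe sets, from 0.25 to 0.52, but its arrays overlapped on each. Probe set 1426575_at read 349, 302 and 117 in iTreg, against 241, 195 and 80.2 in WT Treg. In both groups the replicate 3 array was the lowest, and it was so too on 1426576_at and 1436499_at. On the log2(signal + 16) scale, replicate 3 differed from the mean of replicates 1 and 2 on 1426575_at by -1.36 in iTreg and -1.28 in WT Treg, on 1426576_at by -0.69 in iTreg and -0.74 in WT Treg, and on 1436499_at by -1.64 in iTreg and -1.58 in WT Treg. The median of all tested probe sets for the same quantity was -0.072 in iTreg and -0.14 in WT Treg.

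On these 3 probe sets the gap between replicate 3 and the mean of replicates 1 and 2 was larger than the difference between the groups. On 1426576_at, though, WT replicates 2 and 3 were almost level at 49.5 and 45.3, below WT replicate 1 at 143. Without both replicate 3 arrays 1426575_at differed by 0.55, close to its value of 0.52 with all arrays. Without WT replicate 3 alone the difference of 1436499_at was -0.28, against 0.25 with all arrays, and that of 1442079_at, which lay above the unspiked controls on 2 arrays, was -0.14, against 0.26.

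**Figure D3:**
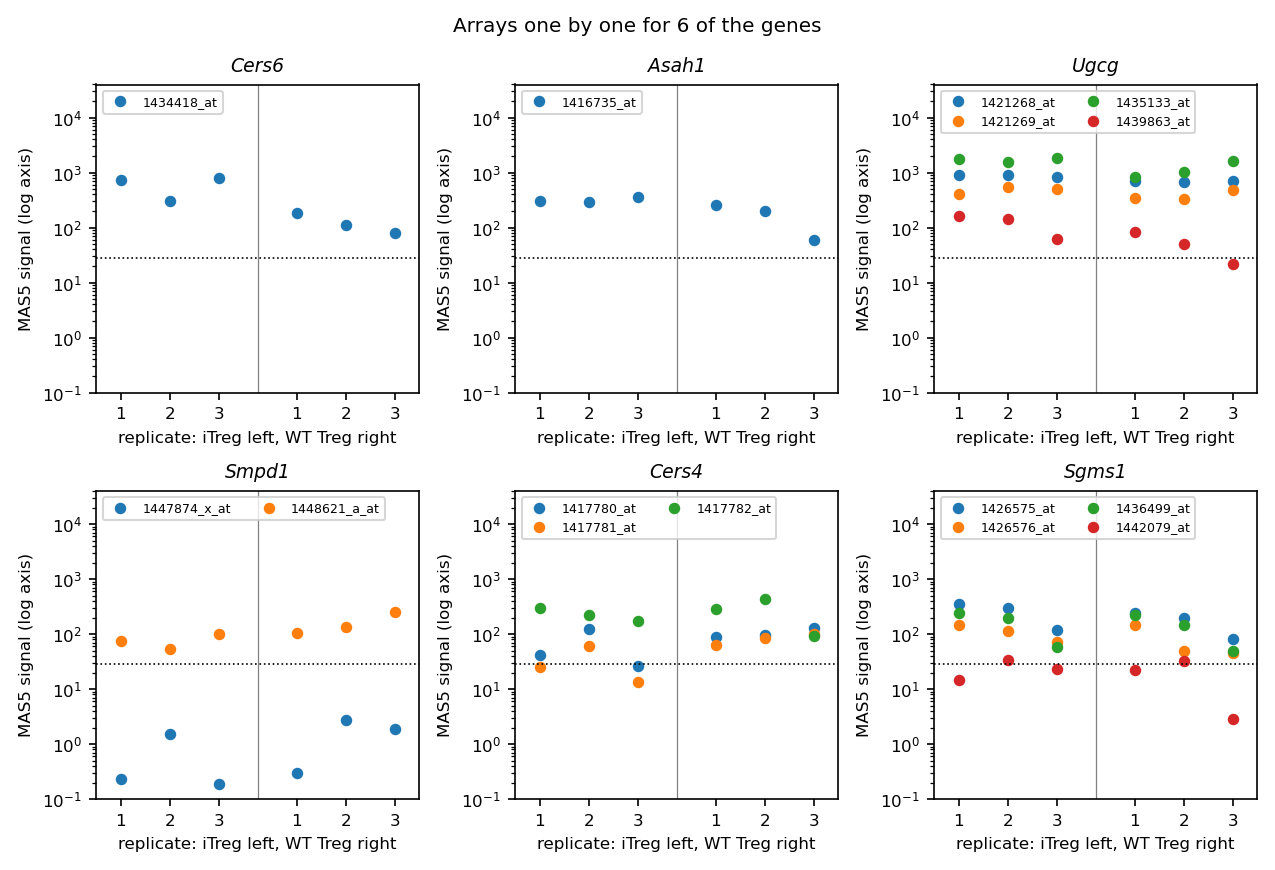
MAS5 signal (log axis) of Cers6, Asah1, Ugcg, Smpd1, Cers4 and Sgms1 by replicate, iTreg left and WT Treg right of the grey line, with a colour for each probe set and the highest unspiked control, 28.5, as a dotted line. The Sgms1 probe set 1426575_at is lowest in replicate 3 of both groups, at 117 in iTreg and 80.2 in WT Treg, and the low WT value of Asah1 is replicate 3, at 60.6.

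The differences of the 2 lysosomal enzymes had opposite signs. Asah1, the acid ceramidase that splits ceramide, read 305, 289 and 364 in iTreg, against 262, 197 and 60.6 in WT Treg on its only probe set (1416735_at). The groups did not overlap, yet WT replicate 1 was close to iTreg replicate 2 and WT replicate 3 was far below the other WT arrays. The means were 319.6 ± 39.7 in iTreg and 173 ± 103 in WT Treg (SD, n = 3 each), and the log2 difference was 1.01 (standard error 0.46). It was 0.46 without WT replicate 3 and 0.36 without both replicate 3 arrays.

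Smpd1, the acid sphingomyelinase that releases ceramide, read 75.7, 53.3 and 102 in iTreg, against 105, 132 and 255 in WT Treg on 1448621_a_at, a probe set whose name ending marks several transcripts of a gene. The groups did not overlap, but iTreg replicate 3 and WT replicate 1 were almost level. The log2 difference was -0.89 (standard error 0.44, 95% interval -1.85 to 0.063), and -0.55 without WT replicate 3. Probe set 1447874_x_at read at most 2.75 on any array, within the range of unspiked controls, and was not tested.

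Some markers of myeloid cells, which are rich in lysosomal enzymes, were also unequal between the groups. The signals of the 8 listed markers summed to between 152 and 308 in iTreg and between 71.0 and 124 in WT Treg, without overlap. None of the 8 lay above the unspiked controls on all 6 arrays; Cd14 and Adgre1 lay within that range on every array. S100a9 read 51.8, 78.5 and 33.0 in iTreg, against 13.1, 1.37 and 0.81 in WT Treg, and Lyz2 44.6, 44.2 and 23.1 in iTreg, against 22.0, 9.01 and 8.79 in WT Treg. S100a8 also parted with iTreg above, at 16.8, 91.2 and 18.1 against 1.59, 9.44 and 12.7 in WT Treg. The other listed markers overlapped between the groups: Csf1r, Itgam and Cd68 differed by 0.20, 0.40 and 0.50, and Cd14 and Adgre1 by -0.033 and 0.0031. The part of these cells in the differences of Asah1, Smpd1 and Neu1, described below, was not tested.

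The rest of the pathway was read from a list of 60 further genes, of which 55 had a probe set with a single symbol and 42 were tested, with 72 tested probe sets. Of these 72, limma called 0 higher and 0 lower at an adjusted p of 0.05, and at an unadjusted p under 0.05 it gave 4 higher and 2 lower, where 2.44% of all tested were higher and 3.77% lower. Groups of arrays did not overlap for 6 higher and 6 lower among the 72, where 4.54% and 6.89% of all tested did not. The median difference of the 72 was -0.056, close to the -0.022 of all probe sets tested. The genes named here are those of the 4 probe sets with the smallest p in each role.

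Among the other de novo genes, 8 probe sets of 5 genes were tested, and on none did the groups part. Degs1, the desaturase that completes ceramide, differed by -0.62 and -0.017 on its 2 probe sets. Sptssa, a small subunit that activates serine palmitoyltransferase, read 4127, 1668 and 1560 in iTreg, against 1500.3, 1508 and 1788 in WT Treg, a difference of 0.47 that rested on iTreg replicate 1. Kdsr, the reductase that follows serine palmitoyltransferase, differed by 0.49, -0.26 and -0.041 on its 3 probe sets.

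Among the genes that carry or convert ceramide, St8sia1 and Cerk had the largest differences. St8sia1, the sialyltransferase that makes the ganglioside GD3, read 2277, 1174 and 2984 in iTreg, against 932, 1032 and 1107 in WT Treg on 1455695_at. On 1419695_at it read 962, 1089 and 817 in iTreg, against 501, 516 and 678 in WT Treg. On all 3 of its probe sets the groups parted with iTreg above, with differences of 0.96, 0.75 and 0.40 (limma adjusted p = 0.722, 0.775 and 0.917). Cerk, which phosphorylates ceramide, read 31.1, 87.6 and 4.20 in iTreg, against 94.3, 104 and 91.5 in WT Treg, a difference of -1.28 (limma adjusted p = 0.785) in which the iTreg arrays were far apart. Plekha8, a carrier of glucosylceramide, differed by -0.73 on a probe set whose iTreg arrays all lay within the range of unspiked controls, and by -0.27 on its other one.

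Among the genes of breakdown, Smpdl3a had the smallest p. This relative of acid sphingomyelinase, an enzyme that acts on nucleotides, read 624, 352 and 414 in iTreg, against 1115, 862 and 1097 in WT Treg, without overlap, a difference of -1.15 (standard error 0.31, limma adjusted p = 0.509). Neu1, the lysosomal sialidase, read 159, 601 and 241 in iTreg, against 93.4, 92.8 and 92.3 in WT Treg on 1448481_at, a difference of 1.48 (limma adjusted p = 0.636), while its other tested probe set differed by -0.20. Gba2, a glucosylceramidase outside the lysosome, differed by 1.03 on 1434271_at without overlap (limma adjusted p = 0.775) and by -0.097 on its other probe set. Acer3, an alkaline ceramidase, differed by -0.60 on 1429520_a_at, with overlapping groups, and by -0.39 and 0.33 on its other tested probe sets.

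Among the genes of sphingosine 1-phosphate, Sgpp1, a phosphatase that turns it back into sphingosine, read 596, 597 and 452 in iTreg, against 603, 939 and 1161 in WT Treg on 1420821_at. The groups parted by a narrow margin, and the difference was -0.66 (limma adjusted p = 0.818), with -0.26 and -0.21 on its other probe sets. Plpp1, a lipid phosphatase, differed by 0.88 on 1422619_at, which lay above the unspiked controls on 4 arrays. Its other probe sets, which were not tested, differed by 0.010 and 0.28. Sgpp2, the relative of Sgpp1, differed by -0.75 on a probe set above the unspiked controls on 3 arrays. The groups overlapped on every probe set of Plpp1 and Sgpp2. S1pr1, the receptor for exit from lymph nodes, read 626, 1092 and 1157 in iTreg, against 1164, 1486 and 1142 in WT Treg, a difference of -0.43 with overlapping groups.

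**Figure D4:**
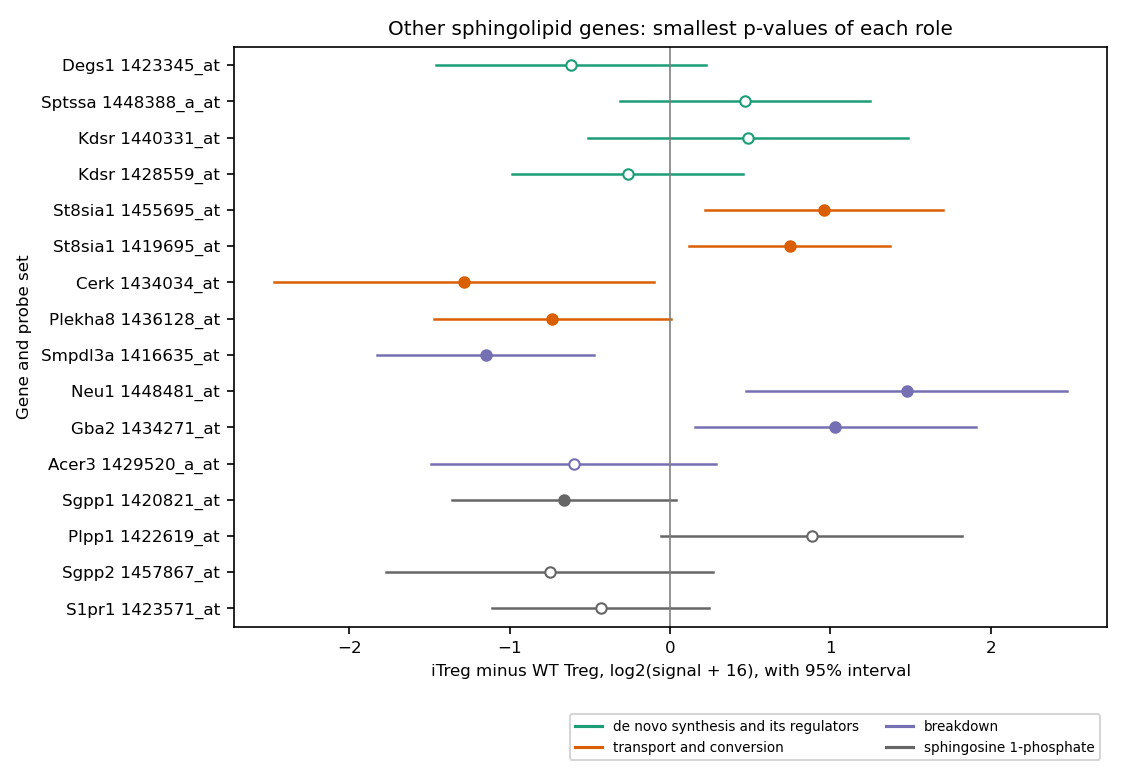
Difference between iTreg and WT Treg on the log2(signal + 16) scale, with its 95% interval from limma, for the 4 probe sets with the smallest p in each of 4 roles of the wider pathway; filled points mark groups of arrays that do not overlap. Neu1 at 1.48 and Cerk at -1.28 stand furthest from 0, and no probe set passed the adjusted threshold.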

How the data were processed

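The authors deposited a linear MAS5 intensity for each of 45101 probe sets, per the submitters' processing notes, which name no MAS5 version. The 2% trimmed mean was 150.0 on every array, which shows scaling before deposit. Groups and replicate numbers came from the titles; nothing says that replicates came from separate mice, so p-values rest on array-to-array spread that may be technical, and the number of arrays limits the precision.

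Genes were taken from the platform annotation (34945 probe sets with 1 symbol, 932 with several, 9160 with none), and the gene IDs of all 10 members matched RefSeq. Signals were transformed as log2(signal + 16), which understates the change of dim probe sets. Probe sets other than the 64 controls whose mean reached the 40th percentile, 27022 in all, were fitted in limma 3.58.1 (R 4.3.3, eBayes with an intensity trend), two-sided, and p-values were Benjamini-Hochberg adjusted over all of them; a member under the filter has its interval from a fit without it. The range of 27 unspiked bacterial controls, up to 28.5, served as background. The fit was checked on simulated data. Replicate numbers are not stated to pair arrays, so the main fit did not use them as pairs. Same-numbered arrays deviated together with r = 0.19, 0.037 and 0.12, against -0.17 to 0.020 for arrays with different numbers. Named are all member probe sets and, of each role of the wider list, the 4 with the smallest p. Members, lists and tests were chosen with earlier results of these data known.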

Additional observations from a re-analysis of the deposited data

How the results depend on the processing

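Over 17 alternatives, Cers6 kept a positive difference, from 1.60 to 2.53. No member and no gene of the wider list passed under any of them or with 1 probe set per gene. Over all members 408 of 425 recomputed differences kept their sign. The changes of filter, trend, robust fit and block leave every difference as it was, so their share of that count was fixed in advance. The median over the members ranged from 0.074 to 0.35, the highest with 1 probe set per gene. The number of all probe sets called was 7 and became 2 with a pseudocount of 1, 2 without a filter, 3 with 1 probe set per gene, 0 without both arrays with disagreeing labels and 0 without both replicate 3 arrays (1253 and 1403 at an unadjusted p under 0.05), where fewer arrays were tested, and 0 to 9 without single arrays. With the replicate number as a block it was 3. The block gave 6 of 23 tested members an unadjusted limma p under 0.05, against 3 in the main fit, and 2044 of all tested probe sets, against 1678. The limma adjusted p of Cers6 was 0.169 with the block and 0.252 in the main fit. Same-numbered arrays share only a number. In its deviations from the group mean, though, each array correlated best with its own number. For the replicate 2 arrays the margin was narrow, at r = 0.037 against 0.020. This comes from the data and not from the design, and whether the numbers pair the arrays was not tested. In a choice made after seeing the data, groups of 2 arrays against 2 parted for 7 members higher and 6 lower without the arrays with disagreeing labels (15.6% and 17% of all tested), and for 8 higher and 2 lower without the replicate 3 arrays (13.2% and 19.7%). Signals within the range of the unspiked controls, which 8 of the 25 probe sets reached on some array, limit the size of a difference.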
